A study of Mus musculus with 6 samples.

Results

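FOXO transcription factors and genes they are known to switch on were examined in mammary epithelial organoids. The 10 genes are a list of symbols, with no value in the rule that picks them, but the list was drawn up with earlier results of these data known. It holds the factors Foxo1 and Foxo3, and 8 genes widely described as FOXO targets: Ccng2, Sesn1, Sesn3, Bcl6, Txnip, Insr, Pdk4 and Cited2. All 10 were measured, among 19937 genes with a probe set of their own. Where a gene had several probe sets, the one with the largest mean level over the 6 arrays was read.

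Organoids treated with doxycycline (DOX) received 5 µM of the drug in the basement-membrane gel for 14 days, and control organoids were kept as long without it, with 3 arrays in each group. Both groups came from age-matched female FVB mice with the genotype ErbB3 DOX-KO, in which the drug induces loss of Erbb3, so the controls carry the same inducible system. The labels give neither the promoter that drives that system nor whether each replicate came from a different mouse, and the p-values measure only the spread between these arrays. No DOX-treated group without the knockout genotype was analysed here, so an effect of the drug itself and an effect of losing Erbb3 cannot be told apart.

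FOXO proteins sit at the end of the insulin and growth factor pathway. When receptors such as INSR or the ERBB2 and ERBB3 pair activate PI3K and AKT, AKT phosphorylates FOXO proteins, which then leave the nucleus. When the pathway is quiet they return and switch on genes of cell cycle arrest, stress defence and fuel use. They also switch on genes that act upstream of them, among them the receptor genes INSR and ERBB3 and the adaptor gene IRS2. The mRNA level of a factor therefore does not show its activity, which was not measured here.

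On the whole-array level DOX replicate 2 was unlike the rest. Across genes it correlated with them at 0.816 to 0.865, while the remaining 5 arrays correlated with each other at 0.963 or more. Genes with high control levels read low on it and genes with low control levels read high, with a median of −1.59 in the highest 10% step of control levels and 0.84 in the lowest. Results are therefore given with all 6 arrays and without DOX replicate 2, where 2 DOX arrays remain. Erbb3, the targeted gene, was not lower as a group on the arrays labelled DOX, at 10.36, 9.31 and 9.82 against 9.78, 9.71 and 9.69 on control arrays. The deleted part of the gene is not given in the labels, so a probe set along the transcript is no clean check of them, and every direction below follows the labels. Of 6 luminal epithelial markers 5 lay above the median of all genes on every control array, Krt19 being the exception, and of 5 basal epithelial markers 2 did, Krt14 and Oxtr. The same held for 1 of 7 fibroblast, 2 of 5 macrophage, 0 of 6 adipocyte, 0 of 5 endothelial and 0 of 4 measured lymphocyte markers. Without DOX replicate 2, 3 luminal markers (Krt8, Krt18 and Elf5) and 2 basal markers (Krt14 and Oxtr) fell, and none of either rose. Of the macrophage markers Cd68 rose by 1.01 and Cd14 fell by 1.06, and of the lymphocyte markers Ptprc rose by 0.38 (limma adjusted p = 1.03e-04, 8e-05 and 0.0358), while no fibroblast, adipocyte or endothelial marker passed. The mean of the adipocyte markers was 4.47 to 5.29 in DOX arrays, highest on DOX replicate 2, and 4.41 to 4.47 in control arrays. This was not particular to adipocyte markers. Fibroblast, endothelial and lymphocyte means were also highest on DOX replicate 2, at 5.72, 5.2 and 5.39, against at most 5.04, 4.56 and 4.75 on control arrays. There the basal mean (5.72) lay below every control array, and the macrophage mean (5.72) was the lowest of the 6 arrays. The mean of 6 luminal epithelial markers was 9.08 to 9.77 in DOX arrays and 10.3 to 10.4 in control arrays, and the part of any of these markers in the results below was not tested. In bulk RNA, fewer cells of a type and less RNA per cell cannot be told apart.

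Bcl6 and Insr were higher on DOX replicates 1 and 3 than on every control array. Their group means without DOX replicate 2 differed by 3.48-fold and 2.39-fold, and those of Sesn1, Foxo1 and Cited2 by less. DOX replicate 2 did not show the Bcl6 and Insr rise. With all 6 arrays none of the 10 genes passed an adjusted p of 0.05 in limma, against 2.38% of all genes (0.120% higher and 2.26% lower). Sesn1 alone of the 10 had an unadjusted p below that value (0.0339), as did 2795 of all 19937 genes. Without DOX replicate 2, Bcl6, Insr and Cited2 rose and Foxo1 and Sesn1 fell. That is 3 higher and 2 lower of 10, against 12.3% higher and 14.3% lower of all genes, 26.6% in all. Of the 10 genes, 9 lie in the 4 highest 10% steps of control levels, where 42.1% to 46.8% of genes were called in this fit, so a share of 50% is close to that of other genes of like level. The median difference of the 10 genes was −0.02 without DOX replicate 2 and −0.19 with all arrays, against 0.01 and 0.02 over all genes. With all arrays the groups did not overlap for 3 of the 10 genes (Foxo1, Sesn1 and Sesn3, all lower in DOX), against 32.0% of all genes (11.7% higher and 20.3% lower). With DOX replicate 2 left out they did not overlap for 8 of the 10, 4 higher and 4 lower, against 51.6% of all genes (25.4% higher and 26.2% lower). These overlap shares cover all genes and were not taken by control level, so they are no comparison with genes of like level.

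**Figure D1:**
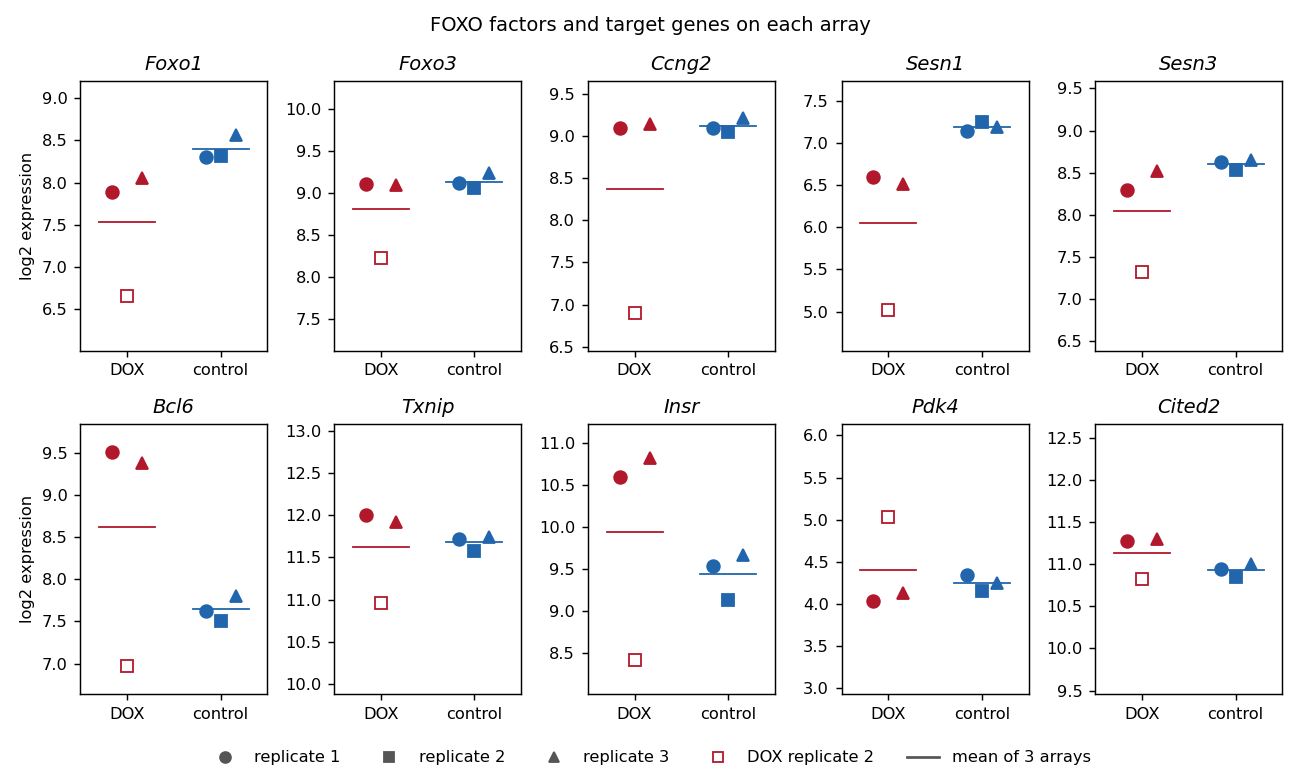
Log2 expression of the 10 genes on each array (vertical axes, each with the same span), with DOX on the left and control on the right; marker shape gives the replicate number, the open square is DOX replicate 2, and lines are means of 3 arrays. DOX replicates 1 and 3 sit above the controls for Bcl6, Insr, Txnip and Cited2. They sit below them for Foxo1 and Sesn1 and, narrowly, for Sesn3 and Pdk4. DOX replicate 2 is the lowest point in every panel but Pdk4.

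Foxo1, the family member known best for its part in insulin action, read 7.88, 6.65 and 8.06 on the log2 scale on DOX replicates 1 to 3, against 8.31, 8.32 and 8.56 on the controls. All DOX arrays lay below all control arrays. The difference of DOX minus control was −0.87 with all arrays (95% confidence interval −1.79 to 0.06, limma adjusted p = 0.384) and −0.43 without DOX replicate 2 (SE 0.12, limma adjusted p = 0.0277), a 1.34-fold decrease. This call is a narrow one: of the 5 arrays, leaving out DOX replicate 1, control replicate 2 or control replicate 3 as well ended it (limma adjusted p = 0.111, 0.0556 and 0.11), and so did centring each array on its median (−0.29, limma adjusted p = 0.0957).

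Foxo3 encodes a factor of the same family with a known role in quiescence and oxidative stress resistance. It read 9.10, 8.22 and 9.09 on the DOX arrays and 9.12, 9.05 and 9.23 on the control arrays. DOX replicates 1 and 3 lay inside the control range, and DOX replicate 2 lay below it. The 5 arrays other than DOX replicate 2 gave −0.04 for DOX minus control (95% confidence interval −0.29 to 0.21), which did not pass (limma adjusted p = 0.841), and with all arrays −0.33 (limma adjusted p = 0.544).

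The remaining family members were measured too. Foxo4 read 7.78, 6.80 and 7.55 in DOX arrays and 7.48, 7.47 and 7.39 in control arrays, a difference of 0.22 without DOX replicate 2 and of −0.07 with all arrays (limma adjusted p = 0.208 and 0.897). Foxo6, known mainly from the brain, read 5.81, 5.17 and 5.77 in DOX arrays and 6.23, 6.35 and 6.10 in control arrays. It lay lower on all DOX arrays and fell by 0.44 without DOX replicate 2 (limma adjusted p = 0.0184), but did not pass with all arrays (−0.64, limma adjusted p = 0.289). On those 5 arrays, then, Foxo1 and Foxo6 fell, and Foxo3 and Foxo4 did not pass.

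Insr encodes the insulin receptor, which FOXO proteins are known to induce when insulin signalling is low. It read 10.59, 8.42 and 10.82 on the DOX arrays and 9.53, 9.14 and 9.66 on the control arrays. DOX replicates 1 and 3 exceeded every control, and DOX replicate 2 was below every control. The difference was 1.26 without DOX replicate 2 (95% confidence interval 0.91 to 1.61, SE 0.16, limma adjusted p = 1.80e-04) and 0.50 with all arrays (95% confidence interval −1.01 to 2.0, limma adjusted p = 0.672). Insr was the only one of the 10 with a further probe set, which read 9.56, 7.89 and 9.45 in DOX arrays and 8.50, 8.20 and 8.52 in control arrays. Its difference was 1.10 without DOX replicate 2 (SE 0.13, limma adjusted p = 1.23e-04) and 0.56 with all arrays (limma adjusted p = 0.534).

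Bcl6 encodes a transcriptional repressor studied most in germinal centre B cells and also present in mammary epithelium. It read 9.51, 6.97 and 9.38 on the DOX arrays and 7.62, 7.51 and 7.81 on the control arrays. As for Insr, DOX replicates 1 and 3 were high, and DOX replicate 2 lay below the controls. The difference on the 5 arrays was 1.80 (95% confidence interval 1.53 to 2.08, SE 0.12, limma adjusted p = 1.92e-06), the largest of the 10 genes, and with all arrays it was 0.98 (95% confidence interval −0.62 to 2.57, limma adjusted p = 0.487). The calls of Bcl6, Insr and Sesn1 held in all 11 alternatives run without DOX replicate 2, with differences of 1.73 to 1.93 for Bcl6, 1.11 to 1.39 for Insr and −0.68 to −0.48 for Sesn1.

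Cited2, a coactivator partner of CBP and p300 that restrains HIF-1, read 11.28, 10.82 and 11.30 on the DOX arrays and 10.94, 10.85 and 11.00 on the control arrays. It rose by 0.36 without DOX replicate 2 (SE 0.11, limma adjusted p = 0.0347), a 1.28-fold change, and differed by 0.20 with all arrays (limma adjusted p = 0.599). The call was lost when any 1 of the 5 arrays was left out as well (limma adjusted p = 0.0606 to 0.111).

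Ccng2 encodes cyclin G2, an atypical cyclin that slows the cell cycle and is a classic FOXO target. Its values were 9.09, 6.89 and 9.15 on the DOX arrays and 9.09, 9.05 and 9.21 on the control arrays. DOX replicates 1 and 3 lay within the control range, and the means without DOX replicate 2 were 9.12 in DOX and 9.12 in control (95% confidence interval of the difference −0.25 to 0.25). DOX replicate 2 was lower by 2.22 than the control mean, and the difference with all arrays was −0.74 (limma adjusted p = 0.532).

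Sesn1 and Sesn3 encode sestrins, stress-induced proteins that dampen mTORC1. Sesn1 read 6.60, 5.02 and 6.51 on the DOX arrays and 7.15, 7.25 and 7.19 on the control arrays. It lay lower on all DOX arrays and fell by 0.64 without DOX replicate 2 (95% confidence interval −0.88 to −0.39, limma adjusted p = 0.0015), a 1.55-fold decrease, and with all arrays the difference was −1.15 (95% confidence interval −2.18 to −0.12, limma adjusted p = 0.307). Sesn3 read 8.29, 7.32 and 8.52 on the DOX arrays and 8.63, 8.53 and 8.65 on the control arrays. All its DOX arrays lay below the controls as well, DOX replicate 3 by less than 0.01, and it did not pass (−0.19 without DOX replicate 2, limma adjusted p = 0.268, and −0.56 with all arrays, limma adjusted p = 0.458). The third sestrin gene, Sesn2, better known as a target of ATF4 and p53, differed by 0.03 with all arrays (limma adjusted p = 0.97) and rose by 0.50 without DOX replicate 2 (SE 0.13, limma adjusted p = 0.014). It read 7.43, 5.87 and 7.11 in DOX arrays and 6.82, 6.81 and 6.69 in control arrays, so its rise rests on leaving out DOX replicate 2.

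Txnip encodes thioredoxin-interacting protein, an arrestin that limits glucose uptake. It read 12.00, 10.96 and 11.92 on the DOX arrays and 11.72, 11.57 and 11.74 on the control arrays. DOX replicates 1 and 3 lay above the controls, and the difference of 0.28 without DOX replicate 2 did not pass (95% confidence interval 0.03 to 0.53, limma adjusted p = 0.097). It passed in 3 of the 11 alternatives, with adjusted p from 0.0147 to 0.314, and with all arrays the difference was −0.05 (limma adjusted p = 0.929). Its arrestin relative Arrdc4, induced with Txnip by the glucose-sensing factor MondoA, fell by 0.55 without DOX replicate 2 (SE 0.13, limma adjusted p = 0.00786) and did not pass with all arrays (−0.70, limma adjusted p = 0.205).

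Pdk4 encodes a kinase that shuts off pyruvate dehydrogenase in fasting. It read 4.04, 5.03 and 4.14 on the DOX arrays and 4.34, 4.16 and 4.25 on the control arrays, below the median of all genes on every array. A gene this low on the scale can hide a change, and no difference passed (−0.17 without DOX replicate 2, limma adjusted p = 0.329, and 0.15 with all arrays, limma adjusted p = 0.785).

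**Figure D2:**
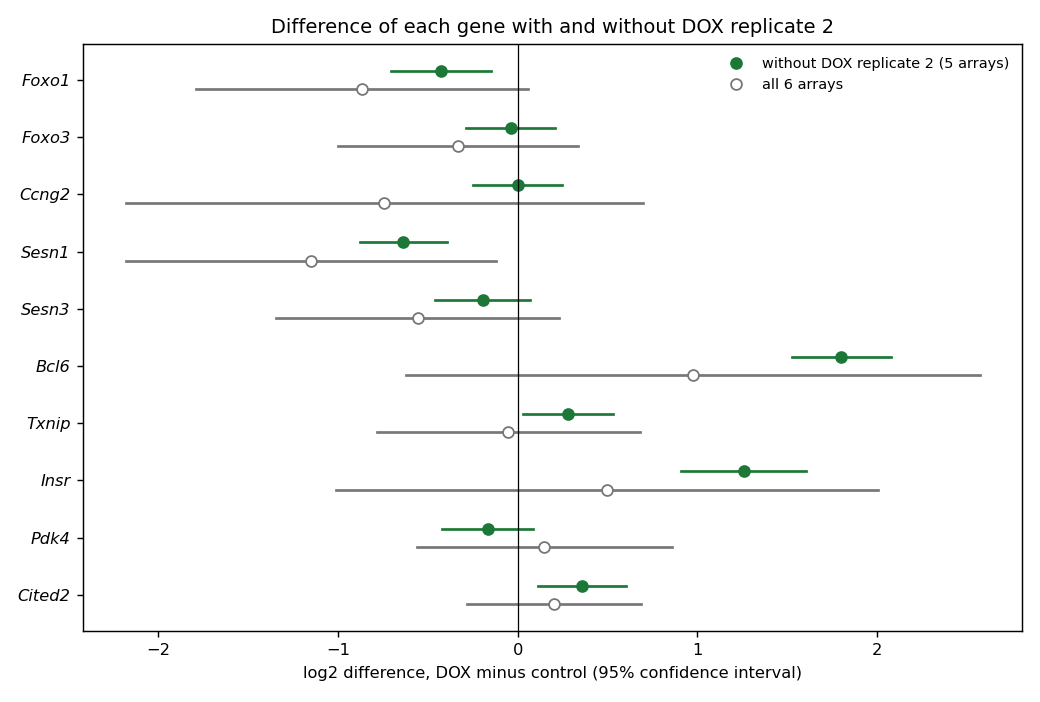
Log2 difference of DOX minus control for each of the 10 genes (horizontal axis), as points with 95% confidence intervals from limma, without DOX replicate 2 in filled green and with all 6 arrays in open grey. Intervals with all arrays are wider for all 10 genes and leave out 0 for Sesn1 alone; without DOX replicate 2 Bcl6 at 1.80 and Insr at 1.26 lie farthest from 0.

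DOX replicate 2 was also read against genes of like control level. There Bcl6 differed from its control mean by −0.67 on the log2 scale, against a median of −1.06 for all genes in its 10% step, and Insr read −1.03 against −1.59. Within their steps, 71.7% and 73.3% of genes read lower than Bcl6 and Insr did. Cited2 at −0.11 and Txnip at −0.71 were also above the step's median of −1.59, with 94.5% and 83.7% of genes lower. So was Foxo3, which did not pass in either fit, at −0.91 with 77.5% of genes lower, so that a place above the step's median was not particular to the genes that rose. Sesn1 was low even for its level, at −2.17 against −0.75, and 2.86% of genes in its step read lower. Foxo1 at −1.75 against −1.36 and Ccng2 at −2.22 against −1.59 lay in the lower part of their steps (31.6% and 24.5% of genes lower), and Sesn3 lay near the middle (54.1%). These are descriptions of 1 array, without a test.

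**Figure D3:**
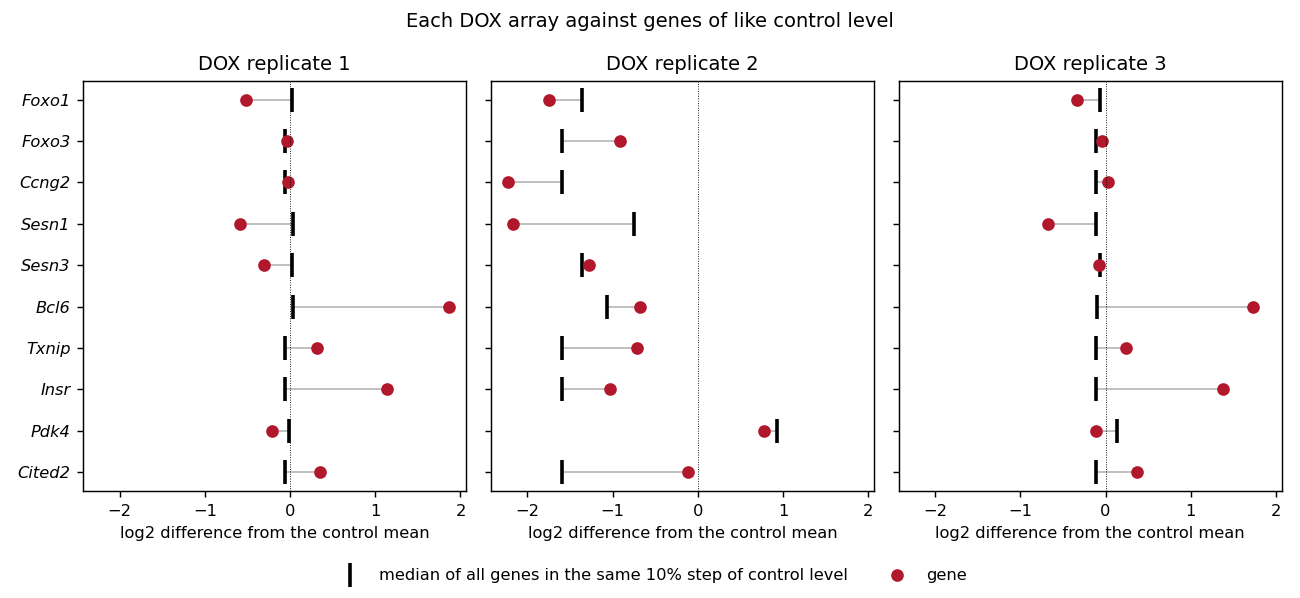
Log2 difference of each gene from the control mean (red points, horizontal axis) on each DOX array, with a black bar at the median of all genes in the same 10% step of control level. On DOX replicates 1 and 3 the bars lie near 0 and Bcl6 and Insr far to the right; on DOX replicate 2 the bars of all genes but Pdk4 lie between −1.59 and −0.75, with Sesn1 left of its bar and Cited2 right of it.

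Sequences near the start sites of these genes were searched for the FOXO motif GTAAACA and for CAAAACA, an insulin response motif, on both strands. Promoters of 300 bases (250 before and 50 after the start) from RefSeq on GRCm38.p6 were found for 9 of the 10 genes, as 11 promoters. GTAAACA or its reverse complement TGTTTAC was present in 2 of the 9, Txnip and Sesn1, against 4.05% of 27025 genes in the same table. CAAAACA or its reverse complement was present in 1 of the 9, Ccng2, against 7.2%. The stretches that hold these 3 matches are shown so that their position and orientation can be read beside each gene's difference. Capitals mark the match.
Txnip, chr3:96557810-96557869, plus strand: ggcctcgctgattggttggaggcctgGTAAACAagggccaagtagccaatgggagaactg
Sesn1, chr10:41810585-41810614, plus strand: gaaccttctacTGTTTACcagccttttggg
Ccng2, chr5:93267513-93267572, plus strand: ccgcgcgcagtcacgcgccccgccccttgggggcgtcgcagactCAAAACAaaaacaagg
The Txnip match begins 121 bases before the start site and the Ccng2 match 16 bases before it, each on the strand of the gene. The Sesn1 match lies 23 bases into the transcript, from its first base, on the opposite strand. It is in 1 of the 2 Sesn1 promoters searched. Without DOX replicate 2, Txnip differed by 0.28 and did not pass, Sesn1 fell by 0.64, and Ccng2 did not pass. Bcl6, with the largest difference, had neither run of letters in either of its 2 promoters in the table. A match is a run of letters and not a known binding site, and other regions of these genes were not searched.

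The wider pathway was read from 3 further lists that hold 96 measured genes in all, with 3 genes on more than 1 list. With all arrays 0 rose and 1 fell (Foxm1), against 0.120% and 2.26% of all genes. An unadjusted p below 0.05 in limma was found for 19 of the 96, and for 2795 of all 19937 genes. In the fit without DOX replicate 2, 27 rose (28.1%) and 20 fell (20.8%), 49% in all, against 26.6% of all genes and 42.1% to 46.8% of genes in the 4 highest steps of control level (16.6% to 20.1% higher and 24.4% to 30.2% lower). Of the 96 genes, 75 lie in those steps and 21 in lower ones, where 6.87% to 34.4% of genes were called. Their median difference was 0.09.

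Upstream of FOXO, 8 of 25 genes rose, 7 fell and 10 did not pass without DOX replicate 2, or 32% higher and 28% lower, against 12.3% and 14.3% of all genes. Of the 25, 20 lie in the 4 highest steps of control level, where 16.6% to 20.1% rose and 24.4% to 30.2% fell. Receptors and their adaptors moved in both directions. Igf1r, the IGF-1 receptor, rose by 0.81 (SE 0.14) and the insulin receptor substrate Irs2 by 1.06 (SE 0.17), while its relative Irs1 fell by 0.67 (SE 0.11). Erbb2, the usual partner of Erbb3, fell by 0.98 (SE 0.12), and the PI3K regulatory subunit gene Pik3r3 fell by 1.68 (SE 0.12), with 6.57, 4.83 and 6.58 in DOX arrays and 8.38, 8.20 and 8.19 in control arrays. Among kinases, Mtor rose by 0.66 and Sgk1, which also phosphorylates FOXO proteins, fell by 0.64. Trib3, a pseudokinase that can bind AKT and is induced by ATF4 and CHOP, rose by 1.79 (SE 0.12). The highest limma adjusted p of these 8 genes was 0.00511, and none passed with all arrays (limma adjusted p 0.0829 to 0.769). Erbb3, itself a FOXO target in human cells, did not pass (0.37 without DOX replicate 2, limma adjusted p = 0.105).

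Among 47 other genes described as FOXO targets, 14 rose, 6 fell and 27 did not pass without DOX replicate 2 (29.8% higher and 12.8% lower, against 12.3% and 14.3% of all genes). The list holds genes that FOXO proteins induce and some that they repress, and these counts do not separate them. Of the 47, 33 lie in the 4 highest steps of control level, where 16.6% to 20.1% rose and 24.4% to 30.2% fell. The largest rises were in Gadd45a, a growth arrest and DNA damage gene (2.31, SE 0.12), and Trp53inp1, a stress gene of the p53 pathway (1.69, SE 0.14). Klf6, a Krüppel-like transcription factor gene, rose by 1.15 (SE 0.18) and Ppargc1a, the coactivator PGC-1alpha, by 1.14 (SE 0.12). Tnfsf10, which encodes the death ligand TRAIL, fell by 1.82 (SE 0.14). It read 4.17, 6.20 and 4.08 in DOX arrays and 5.73, 6.19 and 5.90 in control arrays, so that DOX replicate 2 was level with the highest control. Ccnd1, encoding cyclin D1, fell by 0.74 (SE 0.14), the CDK inhibitor gene Cdkn2d by 0.61 (SE 0.11) and the pseudokinase gene Trib1 by 0.60 (SE 0.12). None of these 8 passed with all arrays (limma adjusted p 0.108 to 0.564). Unlike Ccnd1, the cyclin D2 gene Ccnd2 of the same list rose, by 0.51 without DOX replicate 2 (SE 0.11, limma adjusted p = 0.00603). It was higher on all DOX arrays and did not pass with all arrays (0.56, limma adjusted p = 0.197).

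Of 27 cofactor and turnover genes, 7 rose, 7 fell and 13 did not pass without DOX replicate 2, or 25.9% in each direction, against 12.3% higher and 14.3% lower of all genes. Of these 27 genes, 25 lie in the 4 highest steps of control level, where 16.6% to 20.1% rose and 24.4% to 30.2% fell. The acetyltransferase genes Ep300 and Crebbp rose by 1.24 (SE 0.16) and 0.80 (SE 0.14), Mdm2, a ubiquitin ligase, by 0.81 (SE 0.12) and Fbxo31 by 0.79 (SE 0.19). Foxm1, a forkhead factor of dividing cells that FOXO proteins oppose, read 5.10, 5.16 and 4.79 in DOX arrays and 6.55, 6.70 and 6.58 in control arrays. It was lower on all DOX arrays, with a fall of 1.59 with all arrays (limma adjusted p = 0.00989) and of 1.66 without DOX replicate 2 (SE 0.13). From the 6 arrays, leaving out DOX replicate 3 or control replicate 1, 2 or 3 ended that call (limma adjusted p = 0.0552, 0.0931, 0.102 and 0.0998), with falls of 1.48 to 1.62. Skp2, a ubiquitin ligase subunit that targets Foxo1 and p27, fell by 0.93 (SE 0.12), with 5.68, 5.85 and 5.96 in DOX arrays and 6.68, 6.82 and 6.75 in control arrays. It just missed the threshold with all arrays (−0.92, limma adjusted p = 0.0524). Cdk2 and the arginine methyltransferase gene Prmt1 fell by 0.92 and 0.76 (SE 0.11 each). The highest limma adjusted p without DOX replicate 2 among these 8 genes was 0.00986, and with all arrays all but Foxm1 missed the threshold.

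**Figure D4:**
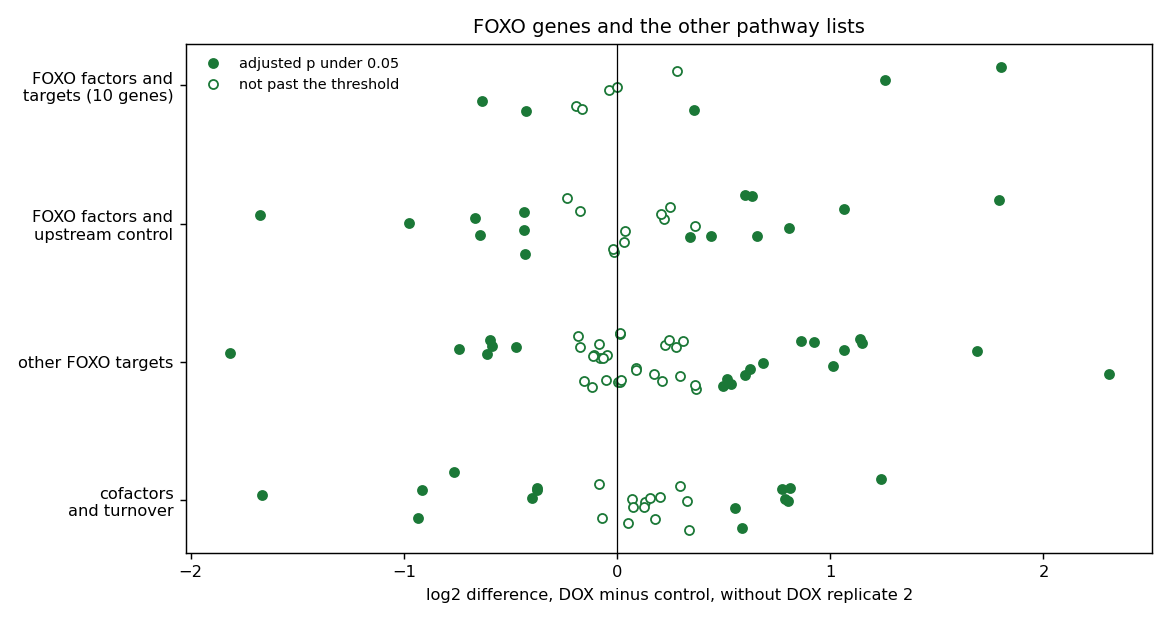
Log2 difference of DOX minus control without DOX replicate 2 (horizontal axis) for the 10 FOXO genes and for the 3 further lists; each point is a gene, filled where the limma adjusted p was below 0.05, and the vertical scatter within a row only separates points. Filled points lie on both sides of 0 in every row, with Gadd45a at 2.31 farthest right and Tnfsf10 at −1.82 farthest left.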

How the data were processed

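RNA of 6 organoid cultures was hybridised to 1 mouse whole-transcript array each. The authors deposited 1 log2 value per probe set and array, made with RMA and the affy package (no versions) per the submitters' processing notes. RMA gives no detection calls. The table was used as deposited. Precision is limited by the number of arrays.

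Of 34760 probe sets, 21640 had 1 gene symbol in the platform annotation, 1321 several and 11799 none here; the last 2 kinds were left out. Gene identifiers checked against GRCm38.p6 changed 0 symbols. Groups, taken from sample titles, were compared by limma (version 3.58.1, R 4.3.3), using lmFit and then eBayes with no covariate and two-sided p-values, and Benjamini-Hochberg adjustment over 19937 genes at 0.05. SE and 95% confidence intervals are moderated.

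The 10 genes, the lists and the alternatives were chosen with earlier results of these data known. Named list genes were those past the threshold with all arrays, plus the 4 largest differences in each direction without DOX replicate 2 among called genes whose groups did not overlap, plus Foxo4, Foxo6, Erbb3 and Arrdc4. Sesn2, Ccnd2, the cell type markers named, and the genes of the closing paragraph on Txnip and Pdk4 regulators were named after their values were seen. The fit was tested on simulated data. Alternatives were the replicate block, each array left out, a filter on low genes, a second quantile normalization, median centring, the mean over probe sets, and a variance trend with robust estimation. Some listed genes are not reported here.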

Additional observations from a re-analysis of the deposited data

How the results depend on the processing

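Among the 10 genes, 108 of 119 differences under alternatives kept their direction and side of the threshold with all arrays, and 91 of 109 without DOX replicate 2. With all arrays, Foxo3 reversed under a second quantile normalization (0.0761), Txnip under that (0.264), under median centring (0.0198) and without DOX replicate 2, and Pdk4 under quantile normalization (−0.13) and without DOX replicate 2. Leaving out 1 array of 6 gave −0.236 to 0.28 for Txnip and −0.166 to 0.332 for Pdk4. Without DOX replicate 2, Foxo3 and Ccng2 reversed with median centring (0.0945 and 0.133). Leaving out 1 more array gave −0.0794 to 0.00952 for Foxo3 and −0.0324 to 0.0465 for Ccng2. None of these passed. Median centring moved the median difference of all genes without DOX replicate 2 to 0.14, against 0.01. It moved the calls to 4568 higher and 2088 lower (68.6% higher, against 46.2%). Of the 10 genes 4 were then higher and 1 lower, against 3 and 2. Of the other pathway genes 38 were higher and 13 lower, against 27 and 20. With all arrays a second quantile normalization gave 314 higher and 548 lower genes (36.4% higher, against 5.06%), and 9 higher and 5 lower pathway genes. The filter on low genes and the variance trend each gave 2 lower pathway genes with all arrays, and the filter left out Pdk4.

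With 1 array left out of 6, counts were 2 to 2454 higher and 61 to 2855 lower genes, 0 to 3 higher and 0 to 2 lower of the 10 genes, and 0 to 27 higher and 0 to 20 lower pathway genes; the highest counts came without DOX replicate 2. Without any other array, none of the 10 was called. With 1 more array left out of the remaining 5, where a lone DOX array was taken to vary like the controls, counts were 1550 to 2515 and 2168 to 2914 genes, 2 and 1 to 2 of the 10, and 24 to 29 and 13 to 18 pathway genes.

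The sample titles give replicate numbers and do not say whether same-numbered arrays are paired. Deviations of same-numbered arrays from their group means correlated at 0.117, 0.194 and 0.0852. DOX replicates 1 and 2 correlated best with their own number, and DOX replicate 3 with control replicate 1 (0.116). DOX replicates 1 and 3 gave nearly the same correlations, because both deviate from a mean that holds DOX replicate 2. These values therefore cannot decide whether the arrays are paired. With all arrays the replicate block gave 3 higher and 159 lower genes and 0 lower pathway genes, ending the Foxm1 call (limma adjusted p = 0.0689). Without DOX replicate 2 the replicate block gave 13 lower pathway genes, and Cited2 did not pass (limma adjusted p = 0.144). It ended no other call among the 10. The cause of these changes was not tested.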

Other observations

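Known regulators of Txnip and Pdk4 outside the FOXO pathway, with some of their targets, were also read. Of 15 such genes measured, 4 rose, 2 fell and 9 did not pass without DOX replicate 2. That is 26.7% higher and 13.3% lower, against 12.3% and 14.3% of all genes. Of the 15, 9 lie in the 4 highest 10% steps of control level, where 42.1% to 46.8% of genes were called. Glucocorticoid receptor targets moved in both directions. Fkbp5 read 8.90, 8.25 and 8.92 in DOX arrays and 10.01, 9.96 and 10.06 in control arrays, and fell by 1.10 on those 5 arrays (limma adjusted p = 3.17e-05). In the 6 arrays its fall was 1.32 (limma adjusted p = 0.045), a call that ended when any 1 array other than DOX replicate 2 was left out (limma adjusted p = 0.0822 to 0.277). The replicate block, a second quantile normalization, median centring and the variance trend ended it too (limma adjusted p = 0.069 to 0.137). It held with the filter on low genes and the mean over probe sets. Zbtb16 was higher on all DOX arrays, at 8.29, 8.10 and 7.92 against 7.56, 7.33 and 7.64 in control arrays, and rose by 0.60 without DOX replicate 2 (limma adjusted p = 0.0103). Tsc22d3 and Klf9, also targets of that receptor and counted above among FOXO targets, rose by 0.68 and 1.01, and Per1 did not pass (limma adjusted p = 0.00113, 0.00115 and 0.353). Mlxip, which encodes MondoA, rose by 0.56 (limma adjusted p = 0.00726) while its partner Mlx differed by −0.33 (limma adjusted p = 0.0659). Angptl4 and Cpt1a, targets of PPAR factors, rose by 0.66 and 0.86 (limma adjusted p = 0.00535 and 2.46e-04), and none of Ppara, Ppard and Pparg passed (limma adjusted p 0.341 to 0.672). With all arrays Zbtb16, Tsc22d3, Klf9, Mlxip, Mlx, Angptl4 and Cpt1a did not pass (limma adjusted p 0.173 to 0.667).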
